A study of Rattus norvegicus with 16 samples.

Results

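Imprinted genes are expressed mainly from the copy inherited from 1 parent, and many of them act on fetal and tissue growth. A set of 10 such genes was followed here in the 2 sorted cell populations of the rat carotid body: Nnat, Dlk1, Igf2, Peg3, Cdkn1c, Grb10, Plagl1, Ndn, Magel2 and Mest. The genes were chosen by name, around Nnat, whose difference with hypoxia had been seen in an earlier analysis of these arrays. Of the 10 genes, 8 were measured, by 9 of the 18511 probes that name exactly 1 gene, out of 18166 genes so measured on the array. Nnat had 2 such probes, and the one with the higher mean over all arrays was taken as its main probe. Peg3 and Mest had no single-gene probe and are not analysed here.

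The cells came from Wistar rats of 9 to 11 weeks, with no transgene or other genetic change named in the labels, that had breathed ambient air (normoxia) or had stayed in hypoxic chambers for 3 days. Both carotid bodies were mixed and dispersed with enzymes, and flow cytometry split the cells by the HNK-1 epitope, a sugar structure on neural surface proteins. HNK-1+ cells were labelled neuroblasts, the immature cells of the neural lineage, and HNK-1- cells were labelled glomus cells, the oxygen-sensing cells that release transmitter when blood oxygen falls. Each population in each oxygen condition formed a group, 4 groups of 4 arrays. The HNK-1- gate removes only cells that carry the epitope, so it may hold other cell types of the organ.

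The maternal and paternal copies of an imprinted gene are told apart by DNA methylation at control regions, and the expressed copy follows from that mark. Several paternally expressed genes, such as Igf2 and Peg3, are known to favour growth, and several maternally expressed genes, such as Cdkn1c and Igf2r, are known to restrain it. In the nervous system and in endocrine cells, some of these genes stay active after birth. The arrays measured total RNA per gene and did not separate the parental copies.

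Array medians differed between the oxygen conditions, from 4.40 to 4.64 in the normoxic arrays and from 4.71 to 4.94 in the hypoxic arrays (log2). Over all 30429 probes, the median hypoxic minus normoxic difference was 0.17 in glomus cells and 0.25 in neuroblasts, so differences are also given after each array was centred on its median. The array of hypoxic neuroblast replicate 1 was least like its group: its correlation with the others across probes averaged 0.914, where each of the other arrays reached at least 0.949, and results that rest on it are given with and without it. Th, the first enzyme of catecholamine synthesis, was high in all groups, with 12.63 ± 0.09 (normoxic) and 12.11 ± 0.28 (hypoxic) in glomus cells and 12.30 ± 0.19 and 11.13 ± 1.20 in neuroblasts (log2, mean ± SD, n = 4). B3gat1, an enzyme that builds the HNK-1 sugar, was higher in neuroblasts than in glomus cells by 1.36 ± 0.29 in normoxia (log2 ± SE; adjusted p = 0.0197, limma) and by 0.31 ± 0.29 in hypoxia (adjusted p = 0.72). In normoxia 7 of the 16 measured neuroblast markers were higher in neuroblasts and none was lower. In hypoxia none passed in either direction by limma (3 of 16 at an unadjusted p under 0.05). Of all probes 1.82% and 0.283% passed, and without hypoxic neuroblast replicate 1 there were 8 and 1 neuroblast markers higher. With hypoxia 11 of the 16 fell and 1 rose in neuroblasts, where 13.7% of all probes were lower and 18.4% higher. Without that array 10 fell and 1 rose.

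The sequence at a gene's start shows how densely it holds CG, the base pair step at which DNA is methylated. RefSeq promoter windows of 300 bases (250 before the start of the transcript and 50 after, rat build GRCr8) were at hand for 8 of the 10 genes, 6 of them measured. Nnat and Cdkn1c had no entry. Grb10 is shown because its level parted the 2 populations more than that of any other measured gene of the set; the run below is the part of its window that lies upstream of the gene, chr14:90816400-90816637 on the minus strand, with every CG in capitals.
Grb10: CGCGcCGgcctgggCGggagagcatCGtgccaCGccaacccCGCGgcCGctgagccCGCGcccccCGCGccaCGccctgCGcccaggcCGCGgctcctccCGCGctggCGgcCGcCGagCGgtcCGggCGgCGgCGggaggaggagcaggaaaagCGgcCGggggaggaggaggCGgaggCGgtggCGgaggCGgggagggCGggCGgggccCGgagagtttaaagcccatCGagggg
These 238 bases held 37 CG steps, and 81.1% of the bases were G or C. Over its whole window Grb10 held 44 CG steps, more than 98.1% of the 33469 windows of the table, whose median was 7. Dlk1 held 45, Plagl1 29, Mest 18, Peg3 16, Ndn 14 and Magel2 12, while the 2 windows of Igf2 held 19 and 7. The core of the element bound by hypoxia-inducible factors was searched in the windows as ACGTG and GCGTG, on both strands; ACGTG on 1 strand can overlap ACGTG on the other. ACGTG was absent from the Grb10 window and GCGTG matched at 2 places. GCGTG matched 5 times in Dlk1 and 1 time each in Peg3 and Plagl1, ACGTG matched 2 times in Plagl1, 1 Igf2 window held 1 of each, and Ndn, Magel2 and Mest held neither; over all windows, ACGTG occurred in 19.3% and GCGTG in 29.7%. These are letter matches in 1 window per start site, and no binding or methylation was measured here.

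Nnat encodes neuronatin, a small membrane protein of the endoplasmic reticulum that is expressed from the paternal copy in developing brain and in hormone-secreting cells and is linked to calcium handling. The values that follow for its hypoxic difference are a description, since that difference is what singled the gene out. On its main probe (17778926) the normoxic glomus arrays read 6.68, 6.91, 7.10 and 7.38, and the hypoxic glomus arrays read 9.94, 9.89, 9.62 and 10.26 (deposited log2 values, replicates 1 to 4). The lowest hypoxic array lay 2.24 above the highest normoxic one. The normoxic neuroblast arrays read 7.56, 6.48, 7.61 and 7.62, and the hypoxic neuroblast arrays read 10.13, 9.02, 9.59 and 9.46. These groups did not overlap either, and normoxic neuroblast replicate 2 was the lowest of all 16 arrays. In bulk samples such as these, more cells of a type that expresses a gene and more of its RNA per cell cannot be told apart.

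The group means of the main Nnat probe ran from 7.02 ± 0.30 in normoxic glomus cells and 7.32 ± 0.56 in normoxic neuroblasts to 9.55 ± 0.46 in hypoxic neuroblasts and 9.93 ± 0.26 in hypoxic glomus cells (SD, n = 4). In this order the 2 normoxic groups overlapped and so did the 2 hypoxic groups, and the break lay between the oxygen conditions. The hypoxic minus normoxic difference was 2.91 ± 0.27 in glomus cells, or 7.52-fold, and 2.23 ± 0.27 in neuroblasts, or 4.70-fold (log2 ± SE). These ranked 15 and 113 from the top among the 30429 probes. With each array centred on its median the differences were 2.70 and 1.95, and without hypoxic neuroblast replicate 1 the neuroblast difference was 2.04 ± 0.27. The difference in neuroblasts was smaller than that in glomus cells by 0.68 ± 0.38 on the log2 scale, an interaction given without a test.

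**Figure D1:**
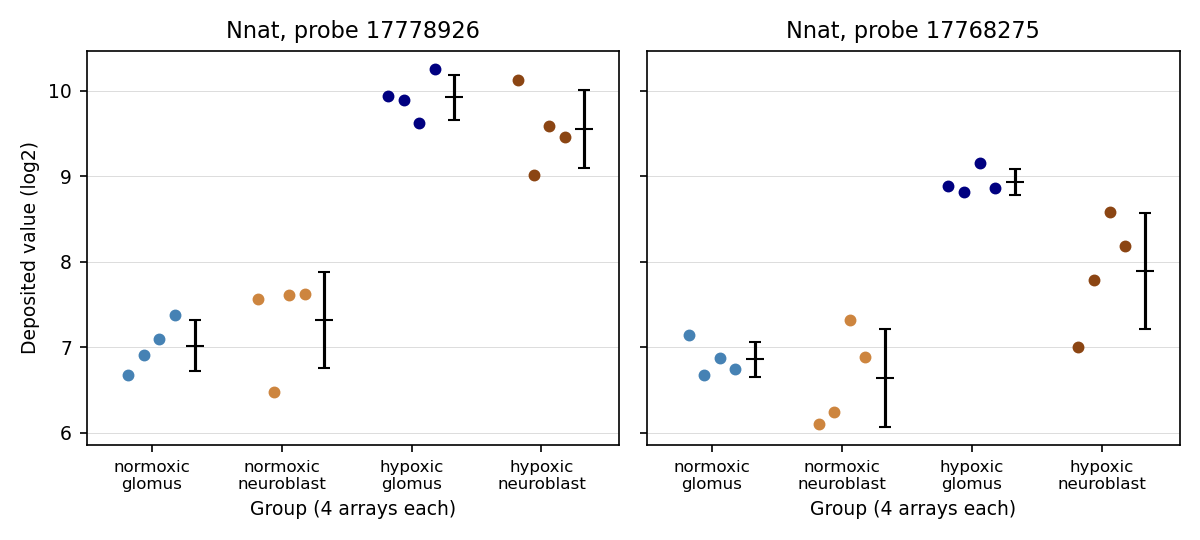
Deposited log2 values of the 2 Nnat probes (vertical axis) in each of the 4 groups (horizontal axis); each point is 1 array and the bar is the mean ± SD of 4 arrays. On the main probe, at left, all 8 hypoxic arrays read at least 9.02 and all 8 normoxic arrays at most 7.62, while on the second probe the neuroblast groups overlap.

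The second Nnat probe (17768275) also read higher after hypoxia. Its values were 7.14, 6.67, 6.87 and 6.75 in normoxic glomus cells and 8.89, 8.82, 9.16 and 8.86 in hypoxic glomus cells, with no overlap. In neuroblasts they were 6.10, 6.24, 7.32 and 6.89 in normoxia and 7.00, 7.79, 8.58 and 8.19 in hypoxia, and hypoxic replicate 1 lay inside the normoxic range. Hypoxic neuroblast replicate 1 was thus the highest of its group on the main probe and the lowest on the second. The hypoxic difference on the second probe was 2.08 ± 0.30 in glomus cells and 1.25 ± 0.30 in neuroblasts, or 1.55 ± 0.26 without that array.

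Nnat was next compared between the populations, the contrast that did not choose it. On the main probe neuroblasts minus glomus cells was 0.30 ± 0.27 in normoxia (adjusted p = 0.925) and -0.38 ± 0.27 in hypoxia (adjusted p = 0.617), both within overlapping values (limma, Benjamini-Hochberg over all probes). On the second probe the difference was -0.22 ± 0.30 in normoxia (adjusted p = 0.982). In hypoxia it was -1.04 ± 0.30: all 4 hypoxic neuroblast arrays read below all 4 hypoxic glomus arrays, which 4.48% of all probes showed in either direction. This did not pass the test (adjusted p = 0.182) and was -0.75 ± 0.26 without hypoxic neuroblast replicate 1 (adjusted p = 0.377).

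By the root mean square difference over the 16 arrays, after each gene's own mean was subtracted, the single-gene probes most like the main Nnat probe were Rpl31-ps11 (0.383), Hscb (0.429), Rbis (0.432), Itgb3bp (0.454) and Smim26 (0.484, log2), of 18039 probes compared. All 5 read higher in hypoxia, which their choice by likeness to Nnat over these same arrays brings with it, from 1.86 for Smim26 to 2.36 for Hscb in glomus cells and from 2.06 for Hscb to 2.58 for Rbis in neuroblasts (log2 differences). The second Nnat probe came 227th in this order, at 0.778. Of the other imprinted genes of the set, Cdkn1c came nearest at rank 1746, and Grb10 was the most distant at rank 16351.

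Across the 8 measured genes of the set, none passed the test (an adjusted p under 0.05 over all probes, limma) for neuroblasts minus glomus cells, against 1.82% of all probes in normoxia and 0.283% in hypoxia. At an unadjusted p under 0.05 there were 3 in normoxia (Grb10, Dlk1 and Cdkn1c) and 1 in hypoxia (Grb10). For the hypoxic minus normoxic comparisons, where Nnat is left out of the count, 1 of 7 passed in glomus cells and 1 of 7 in neuroblasts, against 18.9% and 32.1% of all probes. It was Cdkn1c each time, higher in hypoxia, the direction of 9.37% and 18.4% of all probes. For the interaction 0 of 7 passed in limma, none of them at an unadjusted p under 0.05 either, against 0.0789% of all probes. The median difference of the 7 genes was -0.14 in glomus cells and 0.08 in neuroblasts, below the 0.17 and 0.25 of all probes.

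**Figure D2:**
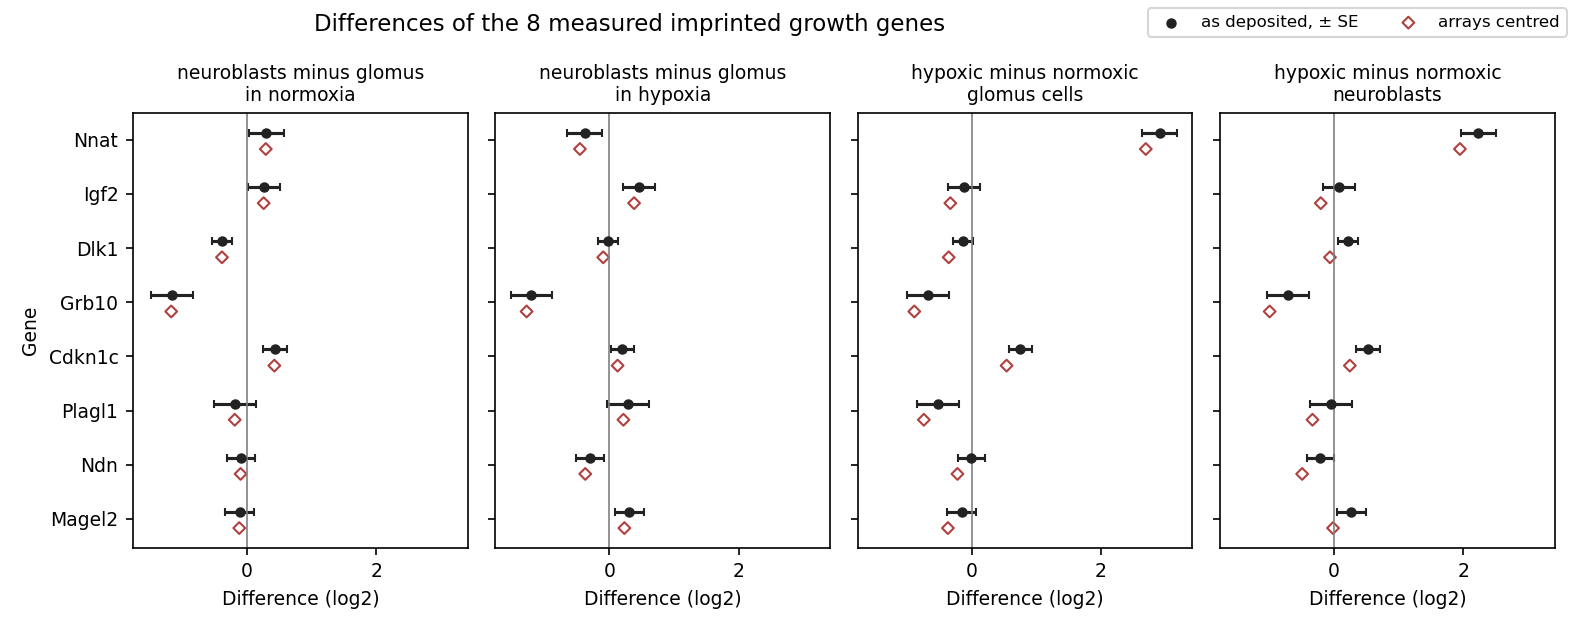
Difference of each of the 8 measured genes (rows) in 4 comparisons (panels), on the log2 scale; black points are differences of the deposited values ± SE from limma and open diamonds the same after each array was centred on its median. Nnat stands apart in both hypoxic minus normoxic panels, at 2.91 and 2.23, while Grb10 lies lowest in both panels of neuroblasts minus glomus cells, at -1.16 and -1.20.

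Cdkn1c encodes p57, an inhibitor of cyclin-dependent kinases that holds cells out of the cycle and is expressed from the maternal copy. Its values were 5.49, 4.90, 5.29 and 4.92 in normoxic glomus cells and 5.93, 5.94, 6.02 and 5.74 in hypoxic glomus cells. Every hypoxic glomus array read higher than every normoxic one, as 26.4% of all probes did in one direction or the other. Cdkn1c rose by 0.76 ± 0.18 in glomus cells, or 1.69-fold (adjusted p = 0.00731), and by 0.54 once arrays were centred (adjusted p = 0.0293). In neuroblasts it read 5.49, 5.99, 5.42 and 5.43 in normoxia and 6.43, 6.10, 6.00 and 5.92 in hypoxia, and the groups overlapped through normoxic replicate 2. The neuroblast difference of 0.53 ± 0.18 passed on the deposited values (adjusted p = 0.0365), but not after centring (0.25, adjusted p = 0.321) or without hypoxic neuroblast replicate 1 (0.42 ± 0.18, adjusted p = 0.0978). It was likewise lost when normoxic neuroblast replicate 1, 3 or 4 or hypoxic neuroblast replicate 2 was left out, with adjusted p from 0.0563 to 0.0942. The 2 hypoxic differences were not shown to differ from each other (interaction -0.23 ± 0.26, adjusted p = 0.919), and neuroblasts minus glomus cells was 0.43 ± 0.18 in normoxia (adjusted p = 0.43) and 0.21 ± 0.18 in hypoxia (adjusted p = 0.699).

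Some markers of other cells were higher after hypoxia, where 9.37% of all probes were higher in glomus cells and 18.4% in neuroblasts. The summed signal of the 15 macrophage markers ran from 8.84 to 10.95 in normoxic and from 10.23 to 11.00 in hypoxic glomus arrays (log2 of the sum), with 4 of 15 higher in hypoxia and none lower. In neuroblasts these sums were 7.92 to 8.50 and 8.42 to 9.01, with none of 15 passing by limma (1 at an unadjusted p under 0.05). The 8 measured endothelial markers summed to 8.99 to 10.38 and 10.46 to 10.90 in the glomus groups and to 7.13 to 7.75 and 8.30 to 8.81 in the neuroblast groups, with 2 of 8 higher in hypoxia in each population. The lowest value in the whole table was 0.87, so no marker could read 0, and whether each marker was detected was not tested. Pericyte and smooth muscle sums were lower in hypoxia, from 12.73 to 12.88 and 11.71 to 12.04 in the glomus groups, and from 12.40 to 12.61 and 11.32 to 12.05 in the neuroblast groups. Of the 8 measured markers, though, 1 was lower (Rgs5) and 1 higher (Des) in each population. Their median differences were 0.22 in glomus cells and -0.10 in neuroblasts, beside 0.17 and 0.25 for all probes. Of 13 fibroblast markers none was higher, and 1 was lower in glomus cells and 2 in neuroblasts. Of 11 type II and glial markers, 1 was higher and 2 lower in glomus cells, and 3 higher in neuroblasts. Over all probes 9.5% and 13.7% were lower. The part of any of these cells in the Nnat and Cdkn1c differences was not tested.

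Igf2 and Dlk1 encode secreted or surface ligands of growth and differentiation, and both are expressed from the paternal copy. Igf2, the fetal insulin-like growth factor, read 4.83, 4.23, 4.56 and 4.19 in normoxic glomus cells and 4.31, 4.59, 4.27 and 4.19 in hypoxic glomus cells. It read 4.58, 5.10, 4.56 and 4.64 in normoxic neuroblasts and 5.50, 4.12, 4.51 and 5.07 in hypoxic neuroblasts. All its groups overlapped, and the hypoxic neuroblasts held both the highest and the lowest of the 16 values. Neuroblasts minus glomus cells was 0.27 ± 0.25 in normoxia (adjusted p = 0.936) and 0.46 ± 0.25 in hypoxia (adjusted p = 0.516), and hypoxic minus normoxic was -0.11 ± 0.25 in glomus cells (adjusted p = 0.783) and 0.08 ± 0.25 in neuroblasts (adjusted p = 0.81, with the sign turned after centring).

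Dlk1, a transmembrane relative of the Notch ligands that holds precursor cells from differentiating, read 5.17, 4.79, 4.62 and 4.76 in normoxic glomus cells and 4.38, 4.68, 4.45 and 4.32 in normoxic neuroblasts. The neuroblast arrays tended to the lower values, with a difference of -0.38 ± 0.15 that did not pass (adjusted p = 0.391). Hypoxic glomus cells read 4.70, 4.72, 4.86 and 4.51 and hypoxic neuroblasts 4.73, 4.63, 4.78 and 4.58, which overlapped fully (difference -0.02 ± 0.15, adjusted p = 0.976). Hypoxic minus normoxic was -0.14 ± 0.15 in glomus cells (adjusted p = 0.564) and 0.22 ± 0.15 in neuroblasts (adjusted p = 0.262, with the sign turned after centring). The values of Igf2 and Dlk1 lay near the array medians.

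Grb10 encodes an adaptor that binds the activated insulin and insulin-like growth factor receptors and dampens their signal; its expressed copy is the maternal one in most tissues and the paternal one in neurons. It read 8.48, 8.49, 8.73 and 8.57 in normoxic glomus cells and 7.26, 7.65, 7.51 and 7.20 in normoxic neuroblasts. All 4 neuroblast arrays lay below all 4 glomus arrays, as for 7.39% of all probes in either direction. In hypoxia Grb10 read 7.94, 7.80, 8.09 and 7.76 in glomus cells and 5.23, 7.19, 7.13 and 7.23 in neuroblasts, again with no overlap and with hypoxic neuroblast replicate 1 far below the others. The 4 groups thus stood in the order normoxic glomus cells (8.57 ± 0.12), hypoxic glomus cells (7.90 ± 0.15), normoxic neuroblasts (7.41 ± 0.21), then hypoxic neuroblasts (6.70 ± 0.98; SD, n = 4). In that order only the 2 neuroblast groups overlapped as neighbours.

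With all arrays no Grb10 comparison passed the test. Neuroblasts minus glomus cells was -1.16 ± 0.32 in normoxia (2.24-fold lower; adjusted p = 0.088) and -1.20 ± 0.32 in hypoxia (2.30-fold lower; adjusted p = 0.151). Without hypoxic neuroblast replicate 1 the normoxic difference was the same size with a smaller error, -1.16 ± 0.14 (adjusted p = 0.00012), and the hypoxic one was -0.71 ± 0.15 (adjusted p = 0.0542). Without that array 2.51% and 0.391% of all probes passed these comparisons. Only that left-out array changed the call in normoxia. Fitting only the arrays compared (adjusted p = 0.00268) and weighting the arrays by their quality (adjusted p = 0.000484) brought the normoxic difference past the threshold as well.

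Between the oxygen conditions, Grb10 read lower in every hypoxic glomus array than in any normoxic one, with a difference of -0.67 ± 0.32 (1.59-fold lower; adjusted p = 0.165); 26.4% of all probes did not overlap here. Without hypoxic neuroblast replicate 1 this glomus difference passed (-0.67 ± 0.14, adjusted p = 0.00234), in a fit in which 23.8% of all probes passed. In neuroblasts the values overlapped and the difference was -0.71 ± 0.32 (adjusted p = 0.0973), falling in size to -0.22 ± 0.15 (adjusted p = 0.293) without that array, where 26.5% of all probes passed. The hypoxic differences of the populations were not shown to differ, with an interaction of -0.04 ± 0.46 with all arrays (adjusted p = 0.993) and 0.45 ± 0.21 without that one (adjusted p = 0.714). In the glomus gate the macrophage and endothelial markers stood above those of the neuroblast gate, with 6 of 15 macrophage markers and 1 of 8 endothelial markers lower in normoxic neuroblasts, and 7 of 15 and 1 of 8 lower in hypoxic ones, against 1.82% and 0.283% of all probes called in either direction. Type II and glial markers went the other way, with 2 of 11 higher and none lower in normoxic neuroblasts. In hypoxic neuroblasts 1 of 11 was higher and none lower. The part of any of these cells in the Grb10 difference was not tested.

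**Figure D3:**
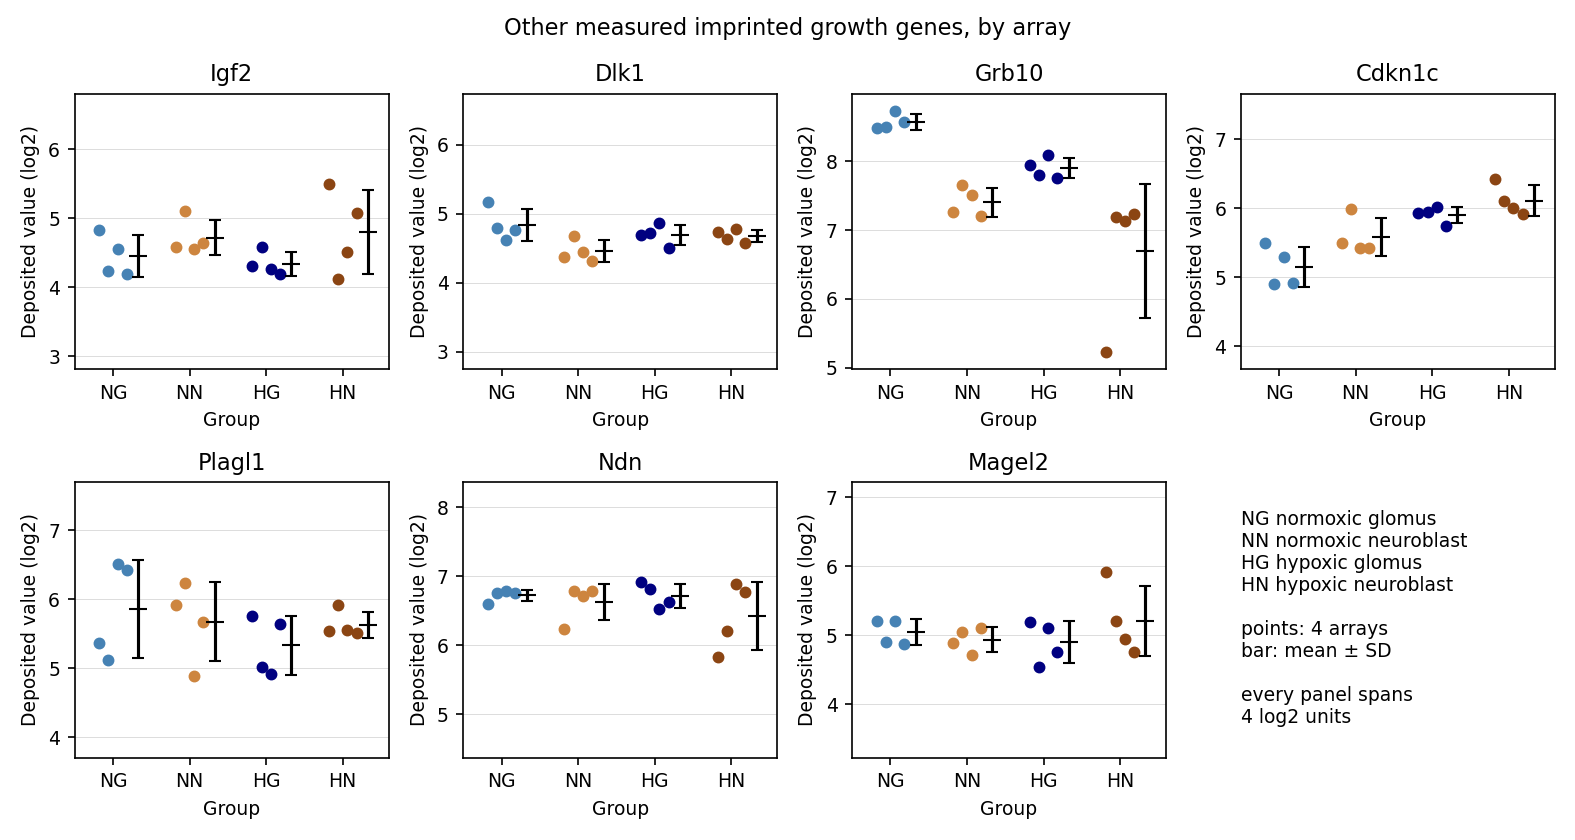
Deposited log2 values (vertical axes, each spanning 4 log2 units) of the 7 measured genes other than Nnat in glomus cells (normoxic NG, hypoxic HG) and neuroblasts (normoxic NN, hypoxic HN); points are arrays and bars the mean ± SD of 4 arrays. Grb10 is lower in neuroblasts than in glomus cells in either condition, with 1 hypoxic neuroblast array at 5.23, and Cdkn1c is higher in every hypoxic glomus array, at 5.74 or more, than in any normoxic one.

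Plagl1, Ndn and Magel2 act inside the cell: Plagl1 is a zinc finger transcription factor that restrains proliferation, and Ndn and Magel2 are neighbouring genes of the MAGE family, whose proteins assist ubiquitin ligases. Plagl1 itself read 5.37, 5.12, 6.51 and 6.42 in normoxic glomus cells, a spread of 0.71 (SD, n = 4) that was wider than in its other groups. Hypoxic glomus cells read 5.76, 5.02, 4.91 and 5.64, and neuroblasts read 5.91, 6.23, 4.89 and 5.67 in normoxia and 5.54, 5.91, 5.55 and 5.51 in hypoxia. No pair of its groups was parted, and its farthest difference, hypoxic minus normoxic glomus cells, was -0.52 ± 0.33 (adjusted p = 0.285). The other Plagl1 differences were -0.18 ± 0.33 and 0.30 ± 0.33 between the populations in normoxia and hypoxia and -0.05 ± 0.33 with hypoxia in neuroblasts.

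Ndn, described as a growth suppressor in neurons that have stopped dividing, read 6.60, 6.75, 6.78 and 6.75 in normoxic glomus cells and 6.24, 6.79, 6.71 and 6.78 in normoxic neuroblasts. It then read 6.91, 6.81, 6.53 and 6.62 in hypoxic glomus cells and 5.82, 6.21, 6.89 and 6.77 in hypoxic neuroblasts. The low readings were those of normoxic neuroblast replicate 1 and hypoxic neuroblast replicates 1 and 2, and every pair of groups overlapped. Its differences ran from -0.30 ± 0.21 (neuroblasts minus glomus cells in hypoxia, adjusted p = 0.62) to -0.0025 (hypoxic minus normoxic glomus cells, adjusted p = 0.994). In glomus cells Magel2 read 5.20, 4.90, 5.21 and 4.87 in normoxia and 5.19, 4.53, 5.10 and 4.76 in hypoxia. In neuroblasts it read 4.88, 5.04, 4.71 and 5.11 in normoxia and 5.91, 5.21, 4.94 and 4.76 in hypoxia. Its highest value came from hypoxic neuroblast replicate 1, and its differences between the groups lay between -0.15 ± 0.22 (adjusted p = 0.672) and 0.31 ± 0.22 (adjusted p = 0.62).

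A group of 15 genes reported to be co-expressed around Plagl1, the imprinted gene network, includes most of the set and had 11 measured genes. In each hypoxic minus normoxic comparison 1 of these rose (Cdkn1c) and 1 fell (Igf2r), with medians of -0.14 in glomus cells and 0.08 in neuroblasts. These 2 of 11 stand beside the 18.9% and 32.1% of all probes that passed. Between the populations only Gnas passed among the 11, where 1.82% of all probes passed in normoxia and 0.283% in hypoxia. It was lower in neuroblasts, with differences of -2.69 ± 0.28 in normoxia (adjusted p = 2.81e-05) and -1.99 ± 0.28 in hypoxia (adjusted p = 0.00304). Gnas encodes the stimulatory G protein subunit and, from other starts, imprinted transcripts, and which of these each probe reads was not tested. This main probe was dim in neuroblasts, at 3.17 to 4.34 in normoxia and 3.78 to 4.29 in hypoxia, below the array medians. In glomus cells it read 5.85 to 6.92 and 5.49 to 6.42. The second Gnas probe gave differences of -1.14 ± 0.29 (adjusted p = 0.0529) and -0.46 ± 0.29 (adjusted p = 0.563) in the same comparisons and did not pass. Without hypoxic neuroblast replicate 1 Grb10 joined Gnas in normoxia and Igf2r in hypoxic glomus cells, and Cdkn1c no longer passed in neuroblasts.

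Among 50 other imprinted genes, 40 were measured. In glomus cells 4 were higher in hypoxia (Commd1, Dlx5, Usp29 and Mcts2) and 3 lower (Inpp5f, Igf2r and Ddc), with a median of 0.13. In neuroblasts 6 were higher (Commd1, Asb4, Calcr, Kcnq1, Tspan32 and Peg12) and 6 lower (Igf2r, Inpp5f, Ddc, Ppp1r9a, Slc38a4 and Nap1l4), with a median of 0.27. Over all probes 9.37% were higher and 9.5% lower in glomus cells, and 18.4% higher and 13.7% lower in neuroblasts. These counts shifted with the scaling: after centring 1 rose and 3 fell in glomus cells, and 1 rose and 8 fell in neuroblasts. Without hypoxic neuroblast replicate 1, 3 rose and 3 fell in neuroblasts. Over all probes the split moved likewise, from 2852 higher and 2892 lower to 1370 and 3783 in glomus cells and from 5596 and 4159 to 1826 and 5464 in neuroblasts.

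Commd1, a regulator of copper handling and of protein turnover, rose by 1.03 ± 0.16 in glomus cells (adjusted p = 0.00032) and by 1.18 ± 0.16 in neuroblasts (adjusted p = 4.64e-05). Inpp5f, a phosphoinositide phosphatase, fell by 1.16 ± 0.22 in glomus cells (adjusted p = 0.0013) and fell by 1.14 ± 0.22 in neuroblasts (adjusted p = 0.000922). Ddc, the enzyme that makes dopamine and the neighbour of Grb10 in the genome, fell by 0.64 ± 0.17 in glomus cells (adjusted p = 0.0132) and fell by 0.85 ± 0.17 in neuroblasts (adjusted p = 0.00118). Nnat lies within the span of Blcap, an imprinted gene linked to cell death, which read 7.67 to 7.93 in normoxic and 7.61 to 7.80 in hypoxic glomus cells. Blcap, named here for its position and after its values were seen, differed by -0.14 ± 0.19 with hypoxia in glomus cells (adjusted p = 0.65) and by -0.25 ± 0.19 in neuroblasts (adjusted p = 0.299), and both signs turned under quantile normalization.

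The insulin-like growth factor axis, in which Igf2 is a ligand and Grb10 a brake, had 28 of 30 other listed genes measured. With hypoxia 3 of these rose and 7 fell in glomus cells and 3 rose and 10 fell in neuroblasts, against 9.37% higher and 9.5% lower of all probes in glomus cells and 18.4% higher and 13.7% lower in neuroblasts. The medians of the whole list were 0.08 and 0.17, below 0.17 and 0.25 for all probes. After centring 1 rose and 7 fell in glomus cells and 1 rose and 10 fell in neuroblasts. Without hypoxic neuroblast replicate 1 the counts were 3 and 8 in glomus cells and 2 and 8 in neuroblasts.

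Among the receptors, Igf1r, which carries the growth signal of Igf1 and Igf2, read 8.99 to 9.34 in normoxic and 7.89 to 8.48 in hypoxic glomus cells, and 9.85 to 10.46 in normoxic and 6.56 to 8.91 in hypoxic neuroblasts. Igf1r fell by 1.03 ± 0.34 in glomus cells (adjusted p = 0.0437) and fell by 2.27 ± 0.34 in neuroblasts (adjusted p = 9.89e-05). The glomus call was lost in 9 of the 16 fits that left out 1 array, with an adjusted p of up to 0.111, and under quantile normalization (adjusted p = 0.0516). Without hypoxic neuroblast replicate 1 the Igf1r differences were -1.03 ± 0.23 in glomus cells (adjusted p = 0.00362) and -1.84 ± 0.25 in neuroblasts (adjusted p = 5.18e-05). Insr, the insulin receptor, fell by 1.33 ± 0.29 in neuroblasts (adjusted p = 0.00218), while its glomus difference of -0.47 ± 0.29 did not pass (adjusted p = 0.273). Igf2r, which takes up Igf2 for breakdown and is itself imprinted, fell by 0.80 ± 0.20 in glomus cells (adjusted p = 0.0103) and fell by 1.49 ± 0.20 in neuroblasts (adjusted p = 3.92e-05). Igf1r, Insr and, in this list, Igf2r are named after their values were seen.

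Downstream of the receptors, the adaptor Shc1 read 9.74 to 10.27 in normoxic and 8.11 to 8.70 in hypoxic glomus cells and fell by 1.68 ± 0.28 (adjusted p = 0.000536). It fell by 2.10 ± 0.28 in neuroblasts (adjusted p = 3.74e-05). Akt1, the kinase that relays growth and survival signals, read 8.73 to 9.19 in normoxic and 6.89 to 7.46 in hypoxic glomus cells and fell by 1.84 ± 0.21 (adjusted p = 2.48e-05). In neuroblasts Akt1 fell by 2.00 ± 0.21 (adjusted p = 4.08e-06). Nedd4, a ubiquitin ligase that binds Grb10, read 10.01 to 10.29 in normoxic and 7.96 to 8.60 in hypoxic glomus cells and fell by 1.79 ± 0.24 (adjusted p = 7.67e-05). It fell by 2.17 ± 0.24 in neuroblasts (adjusted p = 6e-06). None of these ranges of Shc1, Akt1 and Nedd4 overlapped between the oxygen conditions in glomus cells, as for 26.4% of all probes. These genes are named for their small p in this same comparison, which brings such a separation with it.

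Pik3r1, the regulatory subunit of phosphoinositide 3-kinase, was higher in normoxic neuroblasts than in normoxic glomus cells by 1.52 ± 0.26 (adjusted p = 0.00273). It was the 1 call among the 28 genes between the populations with all arrays, where 1.82% of all probes passed in normoxia. Igf1r, whose normoxic ranges did not overlap either (as for 7.39% of all probes), was higher in neuroblasts by 0.92 ± 0.34 (adjusted p = 0.295). It passed without hypoxic neuroblast replicate 1 (0.92 ± 0.23, adjusted p = 0.0412). Pik3r1 read 8.02 to 8.86 in normoxic and 6.08 to 6.94 in hypoxic neuroblasts and fell by 1.91 ± 0.26 with hypoxia (adjusted p = 3.8e-05). Igfbp7, a secreted binding protein that is also a marker of vessel cells, rose by 2.56 ± 0.63 in glomus cells (adjusted p = 0.0078). Its normoxic glomus arrays spread from 6.19 to 9.73 and its hypoxic ones from 9.35 to 10.72, so these groups overlapped. With hypoxia the endothelial marker sums given above moved in the same direction, and the pericyte and smooth muscle sums moved the other way. By list medians the endothelial markers differed by 0.38 in glomus cells and 0.46 in neuroblasts. The pericyte and smooth muscle medians were 0.22 and -0.10, with 1 of 8 markers higher and 1 lower in each population. Neuroblasts minus glomus cells was 1.43 ± 0.63 for Igfbp7 in normoxia (adjusted p = 0.458, limma) and 1.01 ± 0.63 in hypoxia (adjusted p = 0.558). The medians of the endothelial markers in these comparisons were -1.2 and -1.4, and those of the pericyte and smooth muscle markers were 0.305 and 0.185. The part of such cells in the Igfbp7 differences was not tested. With hypoxia in neuroblasts Igfbp7 passed as well, reading 8.35 to 10.41 in normoxia and 10.93 to 11.53 in hypoxia. None of the 28 genes passed for the interaction or for the populations in hypoxia by limma, where 0.0789% and 0.283% of all probes did. In each, 4 reached an unadjusted p under 0.05.

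**Figure D4:**
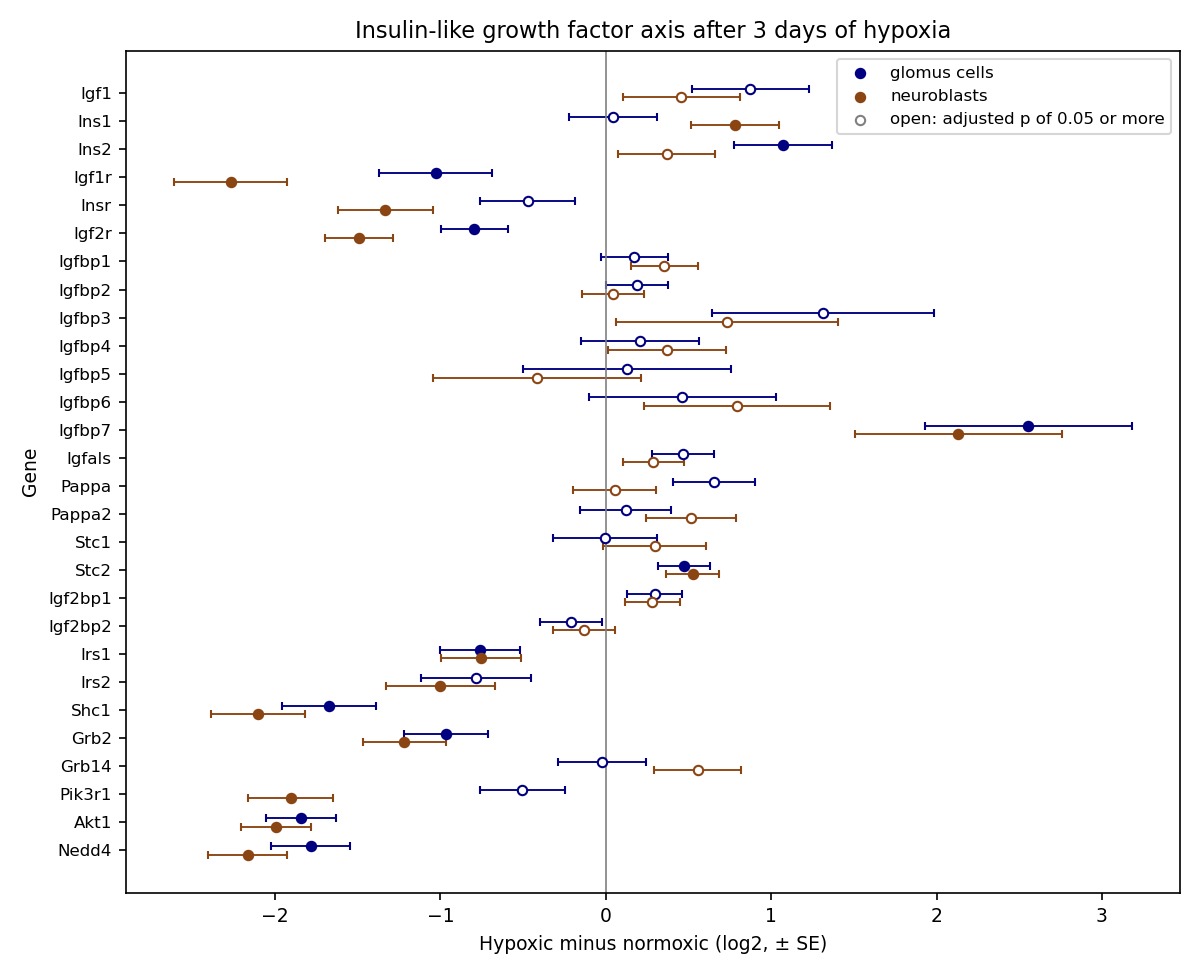
Hypoxic minus normoxic difference ± SE (log2, horizontal axis) of the 28 measured genes of the insulin-like growth factor axis (rows), in glomus cells (blue) and neuroblasts (brown); filled points have an adjusted p under 0.05 in limma. Receptors and downstream genes such as Igf1r, Shc1, Akt1 and Nedd4 lie to the left, and Igfbp7 lies farthest to the right, at 2.56 in glomus cells.

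All 27 listed partners and relatives of the set were measured. With hypoxia 3 rose (Pcna, Siah1 and Usp29) and 7 fell in glomus cells (Ngfr, Usp7, Maged1, Plagl2, Cdk2, Atp2a2 and Abhd6), and 3 rose (Pcna, Siah1 and Grb7) and 8 fell in neuroblasts (Usp7, Maged1, Cdkn1b, Ngfr, Atp2a2, Plag1, Maged2 and Abhd6). Over all probes the shares were 9.37% higher and 9.5% lower in glomus cells and 18.4% higher and 13.7% lower in neuroblasts, so the 3 of 27 that rose were near or below them. The medians were -0.14 and -0.25, against 0.17 and 0.25 for all probes. After centring 1 rose and 8 fell in each population, and without hypoxic neuroblast replicate 1 there were 5 higher and 7 lower in glomus cells and 4 higher and 6 lower in neuroblasts. For the interaction, 0 genes of these 4 lists passed by limma, where 0.0789% of all probes did. At an unadjusted p under 0.05 there were 1 in the imprinted gene network, 2 among the other imprinted genes, 4 in the growth factor axis and 1 among the partners. The lists share genes, so a gene can be counted more than once. Igf2r, for example, is in the network, the other imprinted genes and the growth factor axis.

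Among these relatives, Pcna, the replication clamp that Cdkn1c can bind, read 7.40 to 7.80 in normoxic and 8.93 to 9.28 in hypoxic glomus cells. Pcna rose by 1.52 ± 0.15 in glomus cells (adjusted p = 8.07e-06) and by 1.72 ± 0.15 in neuroblasts (adjusted p = 7.45e-07). Cdkn1b, the nearest relative of Cdkn1c, fell by 0.83 ± 0.22 in neuroblasts (adjusted p = 0.00844), and its glomus difference of -0.56 ± 0.22 did not pass (adjusted p = 0.0828) except after centring (-0.78, adjusted p = 0.0408). Usp7, which works with Magel2, fell by 1.43 ± 0.27 in glomus cells (adjusted p = 0.00122) and fell by 1.66 ± 0.27 in neuroblasts (adjusted p = 0.000186). Maged1, a MAGE relative of Ndn and Magel2, fell by 1.17 ± 0.25 in glomus cells (adjusted p = 0.00348) and fell by 1.38 ± 0.25 in neuroblasts (adjusted p = 0.000589). Cdkn1b and Atp2a2 are outside the naming rule and are named after their values were seen.

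Atp2a2, the calcium pump of the endoplasmic reticulum to which Nnat has been linked, read 9.57 to 10.07 in normoxic and 8.55 to 9.25 in hypoxic glomus cells. Atp2a2 fell by 1.00 ± 0.25 in glomus cells (adjusted p = 0.00982) and fell by 0.93 ± 0.25 in neuroblasts (adjusted p = 0.0103). Ngfr, a nerve growth factor receptor that binds Ndn and Maged1, was lower in normoxic neuroblasts than in normoxic glomus cells (-1.23 ± 0.23, adjusted p = 0.00664). With hypoxia Ngfr fell by 1.47 ± 0.23 in glomus cells (adjusted p = 0.000293). Siah1, a ubiquitin ligase, rose by 0.69 ± 0.15 in neuroblasts (adjusted p = 0.00175), a call lost after centring (adjusted p = 0.0685).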

How the data were processed

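The deposited table holds log2 values for 30429 probes on 16 Affymetrix rat gene arrays; the base was inferred from their range (0.87 to 13.33). Per the labels' protocols, 500 pg of total RNA per sample gave biotinylated cDNA. Per the submitters' processing notes, the authors used Transcriptome Analysis Console; neither its version nor its normalization is given in the sources used here. Values were used as deposited, with no filter.

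limma 3.58.1 in R 4.3.3 fitted 1 mean per group (lmFit, eBayes, 12 residual degrees of freedom, two-sided) for 5 comparisons: the populations in each oxygen condition, hypoxia in each population, and the interaction. The interaction subtracts the hypoxic difference of glomus cells from that of neuroblasts. P-values were adjusted by Benjamini-Hochberg over all probes, and an adjusted p under 0.05 passed. The code was tested on simulated data. The labels do not say whether samples came from separate animals, so p-values measure only the spread between these samples, which may be technical, and the number of arrays limits the precision.

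The genes, the 4 lists, the 10 marker lists and the rules were chosen with earlier results of these data known. Named list genes are the up to 4 with the smallest p per list and comparison, unless said otherwise. Marker lists were summed on the linear scale; groups are normoxic (N) or hypoxic (H) glomus cells (G) or neuroblasts (N). Pericyte and smooth muscle markers summed to 12.73 to 12.88, 12.40 to 12.61, 11.71 to 12.04 and 11.32 to 12.05 (log2) in the groups NG, NN, HG and HN. In the same order, fibroblast markers gave 10.18 to 10.89, 9.81 to 12.42, 10.37 to 10.46 and 9.50 to 10.78, and type II and glial markers 9.60 to 10.10, 9.93 to 10.32, 9.55 to 9.86 and 10.28 to 10.89. Glomus markers gave 14.89 to 15.03, 14.34 to 14.55, 14.53 to 14.73 and 13.62 to 14.43, and neuroblast markers 12.82 to 12.94, 13.18 to 13.69, 12.30 to 12.54 and 11.86 to 12.77. Of the T and NK cell markers 1 of 10 was higher in hypoxic glomus cells and 3 of 10 in hypoxic neuroblasts, where 9.37% and 18.4% of all probes were. In normoxia 1 was lower in neuroblasts than in glomus cells, where 1.82% of all probes passed in either direction. None of 8 neutrophil and none of 2 measured erythroid markers passed in any comparison by limma (at most 2 and 1 at an unadjusted p under 0.05 in a comparison). Alternatives were array centring, array weights, a replicate block, quantile normalization, fits to only those arrays under comparison, robust variance with a trend on intensity, dim probes removed (25% or 50%), averaged probes per gene, a stricter threshold of 0.01 and 1 array left out at a time. Plotting used matplotlib 3.10.9 in Python 3.11.15.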

Additional observations from a re-analysis of the deposited data

Results flagged for a closer look

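In 7 of the 36 sets of 4 arrays examined (9 probes in 4 groups), 1 array lay far from the other 3, with a gap above Dixon's limit for the group's range; chance alone gives this in about 1 set in 20. In normoxic neuroblasts the main Nnat probe read 6.48 in its lowest array, with the next at 7.56. In the same group the highest Igf2 array read 5.10 (next 4.64) and the highest Cdkn1c array 5.99 (next 5.49), and all of these were replicate 2. Ndn read 6.24 in its lowest normoxic neuroblast array (next 6.71), which was replicate 1, and 6.60 in its lowest normoxic glomus array (next 6.75). In hypoxic neuroblasts Grb10 read 5.23 in replicate 1 (next 7.13), and Plagl1 read 5.91 in replicate 2 (next 5.55).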

How the results depend on the processing

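Of 1906 values of single genes under other settings, 1844 kept their direction and side of the threshold, 23 lost the call, 6 gained it, 2 moved by more than the spread and 31 changed sign, none of the last with an adjusted p under 0.603. The 2 that moved were the hypoxic differences of Nnat with its 2 probes averaged, 2.49 in glomus cells and 1.74 in neuroblasts. The number of genes of the set that passed in normoxia between the populations went from 0 to 1 (Grb10) with array weights or only the arrays compared, and ranged from 0 to 1 when 1 array was left out. For hypoxia in glomus cells it went from 1 to 2 (Grb10 added) with array weights or only the arrays compared, and from 1 to 2 over left-out arrays. For hypoxia in neuroblasts it went from 1 to 0 (Cdkn1c lost) with centring, array weights, only the arrays compared or an adjusted p under 0.01, and from 0 to 1 over left-out arrays. Deviations of same-numbered samples correlated from -0.105 to 0.205. Differently numbered samples were not compared, so whether the replicate numbers pair the samples was not settled. With the replicate number as a block, 581, 130, 5986, 10207 and 19 probes passed the 5 comparisons (555, 86, 5744, 9755 and 24 without it), and no count for the set changed.

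Signs that turned belonged to small differences (log2). Over left-out arrays, the populations in normoxia gave -0.425 to 0.0817 for Plagl1 and -0.1433 to 0.04 for Ndn, and in hypoxia -0.08 to 0.0367 for Dlk1. With hypoxia in glomus cells they gave -0.20 to 0.0133 for Igf2 and -0.0667 to 0.06 for Ndn, and in neuroblasts -0.1533 to 0.3067 for Igf2 and -0.3092 to 0.1375 for Plagl1. For the interaction they gave -0.0408 to 0.4192 for Igf2 and -0.2183 to 0.4483 for Grb10, and array weights gave -0.0179 and 0.3607. With hypoxia in neuroblasts, centring gave Dlk1 -0.06, Igf2 -0.2025 and Magel2 -0.0125, array weights Igf2 -0.0564, and quantile normalization Dlk1 -0.0791, Igf2 -0.1084 and Blcap 0.0423. In glomus cells quantile normalization gave Ndn 0.1334 and Blcap 0.0218. The cause was not tested.

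Over all probes, the counts that moved by over 1.5 times were 1081 (array weights), 282 (adjusted p under 0.01) and 347 to 763 (left-out arrays) in normoxia; 151 (quantile), 25 (only the arrays compared), 130 (replicate block) and 35 (under 0.01) in hypoxia; 9490 (weights) and 3218 (under 0.01) for glomus cells; 6262 (only the arrays compared) and 5195 (under 0.01) for neuroblasts; and 11 (centring), 83 (weights), 5 (under 0.01) and 11 to 35 (left-out arrays) for the interaction. Quantile normalization split the hypoxic calls into 2215 higher and 2490 lower in glomus cells and 3278 and 3701 in neuroblasts.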

Other observations

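Genes that flank the set in the genome, from the list of other imprinted genes, were read beside it; they fall outside the naming rule and are named for their position. Beside Cdkn1c, hypoxic minus normoxic differences (log2 ± SE) were 0.42 ± 0.22 in glomus cells (adjusted p = 0.196, limma) and 0.59 ± 0.22 in neuroblasts (adjusted p = 0.0449) for Kcnq1, a potassium channel gene. For Slc22a18, a transporter gene on its other side, they were 0.41 ± 0.25 (adjusted p = 0.261) and 0.44 ± 0.25 (adjusted p = 0.169). After centring none of these 4 differences passed. Beside Grb10, where Ddc fell, Cobl, an actin nucleator gene on the other side, differed by -0.10 ± 0.21 (adjusted p = 0.767) and 0.24 ± 0.21 (adjusted p = 0.363).

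Meg3, the maternally expressed long noncoding RNA of the Dlk1 cluster, differed with hypoxia by 0.03 ± 0.23 in glomus cells (adjusted p = 0.943) and -0.22 ± 0.23 in neuroblasts (adjusted p = 0.461). Begain, next to Dlk1, differed by 0.34 ± 0.27 (adjusted p = 0.405) and 0.10 ± 0.27 (adjusted p = 0.784). Mkrn3, next to Magel2, differed by -0.19 ± 0.23 (adjusted p = 0.599) and 0.37 ± 0.23 (adjusted p = 0.208). Usp29 and Zim1 flank Peg3, which was not analysed here. Usp29 was higher by 0.60 ± 0.20 in hypoxic glomus cells (adjusted p = 0.0495, and 0.274 after centring) and differed by 0.16 ± 0.20 in neuroblasts (adjusted p = 0.541), and Zim1 differed by 0.26 ± 0.28 (adjusted p = 0.543) and 0.0175 (adjusted p = 0.963).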
